A study of Mus musculus with 85 samples.

Results

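The kinesin motor genes are the subject here, taken as every gene whose symbol starts with Kif followed by a number, or with Kifc. The rule found 42 genes among 47937 features of the sorted-cell tables. They were split by textbook role into 14 mitotic, 11 axonal, 7 ciliary and 10 other kinesins. Members with a mean of at least 10 in a table numbered 31 to 39, and Kif2b, Kif12 and Kifc5c-ps were under it everywhere. Close to that limit, Kif17 stood just inside at 10.5 and Kif19a just outside at 4.12 in the Mof neural table. Samples came from mouse embryos at E14.5: brains in which Mof (encoded by Kat8), Kansl2 or Kansl3 was knocked out by Nestin Cre (labelled nKO), set against brains labelled Cre control. RNA was read from whole brain and from FACS-sorted neural cells, endothelial cells, pericytes and, for Mof nKO, microglia, with 3 or 4 libraries a group. Nestin Cre is active in neural progenitors and their progeny, so the sorted endothelial cells, pericytes and microglia came from a brain with neural deletion. A separate experiment gave wild-type pericytes, cultured from adult brain, BSA-conjugated fatty acids (200 uM C14:0, 200 uM C16:0, 20 uM C20:0 and 10 uM C24:0) or a vehicle of ethanol with BSA, in 3 libraries each.

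Kinesins are ATP-driven motors that walk along microtubules or take their ends apart. In dividing cells the mitotic kinesins build the bipolar spindle, move chromosomes and organise the cleavage site, so their transcripts mark cycling progenitors in the embryonic brain. In neurons, which have left the cycle, other family members carry vesicles, mitochondria and RNA along axons and dendrites, and in primary cilia KIF7 organises the tip where Hedgehog signals are handled. MOF is a lysine acetyltransferase of histone H4, and KANSL2 and KANSL3 are its partners in the NSL complex.

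A cell cycle motif was more frequent in the promoter windows of mitotic kinesins than in those of all genes, and the stretches are shown for that reason. RefSeq windows (GRCm38.p6) of 300 bases, with 250 before and 50 after the gene start, matched 33 members. The letters TTTGAA, the core of the cell cycle homology region (CHR) to which DREAM and MuvB complexes bind in dividing cells, were searched on both strands. They lay in 11 of 13 windows of mitotic kinesins, and in 17.9% of 32851 windows of all genes. Within 30 bases of the start they lay in 9 of the 13 mitotic windows, in 0 of 9 axonal, 0 of 7 ciliary and 1 of 8 other windows, and in 3.14% of all windows. The letters CCAAT, the box bound by NF-Y, were also searched on both strands and lay in 9 of 13 mitotic windows and in 37.4% of all windows. The motifs were chosen with the expression values known, and a match is a description of letters, not of binding. Each line below runs 5′ to 3′ in the gene's own direction, from 60 bases before the start to 25 bases into the gene. Capitals mark both motifs, which do not overlap in these stretches. The genes are Kif11 (chr19:37376322-37376406, plus strand), Kif15 (chr9:122951021-122951105, plus strand), Kif18b (chr11:102925100-102925184, minus strand), Kif22 (chr7:127042396-127042480, minus strand), Kif23 (chr9:61946775-61946859, minus strand), Kif4 (chrX:100626005-100626089, plus strand) and Kifc1 (chr17:33890609-33890693, minus strand).
Kif11: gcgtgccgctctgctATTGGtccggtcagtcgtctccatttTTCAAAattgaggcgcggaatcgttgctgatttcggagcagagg
Kif15: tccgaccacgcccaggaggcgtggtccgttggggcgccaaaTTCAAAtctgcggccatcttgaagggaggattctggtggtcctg
Kif18b: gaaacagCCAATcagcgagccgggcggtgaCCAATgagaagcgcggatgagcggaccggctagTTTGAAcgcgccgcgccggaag
Kif22: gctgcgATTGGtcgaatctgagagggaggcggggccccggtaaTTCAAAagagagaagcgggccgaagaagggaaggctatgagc
Kif23: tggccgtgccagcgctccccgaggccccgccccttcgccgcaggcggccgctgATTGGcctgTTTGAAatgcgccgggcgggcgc
Kif4: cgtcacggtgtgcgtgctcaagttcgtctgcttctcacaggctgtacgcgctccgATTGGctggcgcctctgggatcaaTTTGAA
Kifc1: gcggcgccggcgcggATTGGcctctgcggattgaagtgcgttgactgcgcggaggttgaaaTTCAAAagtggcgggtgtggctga

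**Figure D1:**
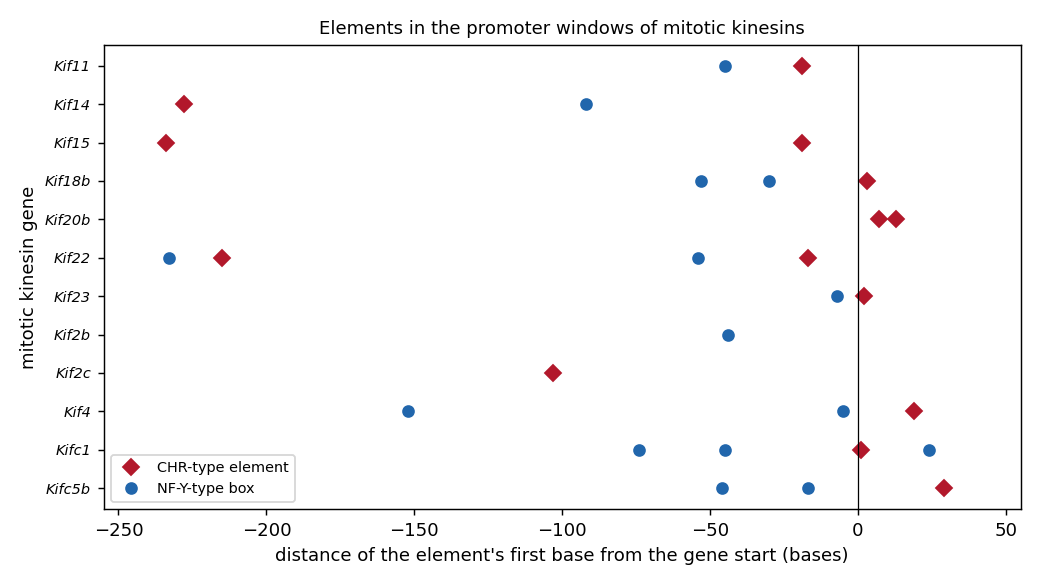
Position of CHR-type elements (diamonds) and NF-Y-type boxes (circles) in the promoter windows of mitotic kinesins, in bases from the gene start (x axis), with 1 gene a row. In 9 genes a CHR-type element lies within 30 bases of the start; Kif18a has neither element and is not drawn.

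Kif7, the ciliary kinesin that fell with each knockout in brain and neural cells, had neither motif in its window. It had 31 CG dinucleotides there, against a median of 7 over all windows; the windows of mitotic kinesins were also rich in CG, with a median of 26. The matching stretch of Kif7 (chr7:79715683-79715767, minus strand) is shown with CG in capitals.
Kif7: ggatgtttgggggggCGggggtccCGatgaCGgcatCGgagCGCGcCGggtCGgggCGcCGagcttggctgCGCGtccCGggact

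Gene reads summed to between 8444551 and 12641817 a library in whole brain, 5687012 and 12665665 in neural cells, 10048082 and 25260285 in endothelial cells, 1572515 and 5852542 in pericytes, 2215701 and 9817084 in microglia and 42623429 and 51854152 in culture. Whether libraries of a group came from separate litters is not given in the sources used here, so p-values measure the spread between these libraries. Kat8 had 10.1 ± 0.757 CPM in Mof nKO brains and 19.3 ± 2.80 CPM in Cre brains (SD, n = 3 each). It fell in all 6 whole-brain and neural comparisons, also where Kansl2 or Kansl3 was the labelled knockout. Total Kansl2 and Kansl3 were not lower in libraries labelled for them: the log2 difference of Kansl2 was 0.46 in brains labelled Kansl2 nKO, and that of Kansl3 was 0.28 in neural cells labelled Kansl3 nKO. Gene counts cannot show whether only some exons were lost, so "Kansl2 nKO" and "Kansl3 nKO" below mean the libraries so labelled. Single libraries are named as the labels name them, with M, K2 and K3 for the knockouts. Kinesins rose or fell where the adjusted p was under 0.05, by edgeR in whole brain and culture and by limma in sorted cells. Fold changes are log2 values ± SE, and those of sorted cells are on the log2(value + 1) scale.

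Across the 6 comparisons of whole brain and neural cells, Kif7 and Kifc2 fell in all 6, and Kif13a was called in both directions. The share of all genes that fell in all 6 is not given here, so nothing particular to the family is read from that count. In neural cells most mitotic kinesins rose: 8 of 13 with Mof nKO, where 19.4% of all genes tested were called higher, 11 of 13 with Kansl2 nKO (20.1% called higher), and 8 of 13 with Kansl3 nKO (26.4% called higher). No mitotic kinesin fell in neural cells, where 17.1%, 22.1% and 28.8% of all genes were called lower with Mof, Kansl2 and Kansl3 nKO. The 3 neural comparisons share 1 set of Cre libraries, whose normalized counts differ between tables because each table has its own size factors, and the 3 of whole brain also share their Cre libraries.

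**Figure D2:**
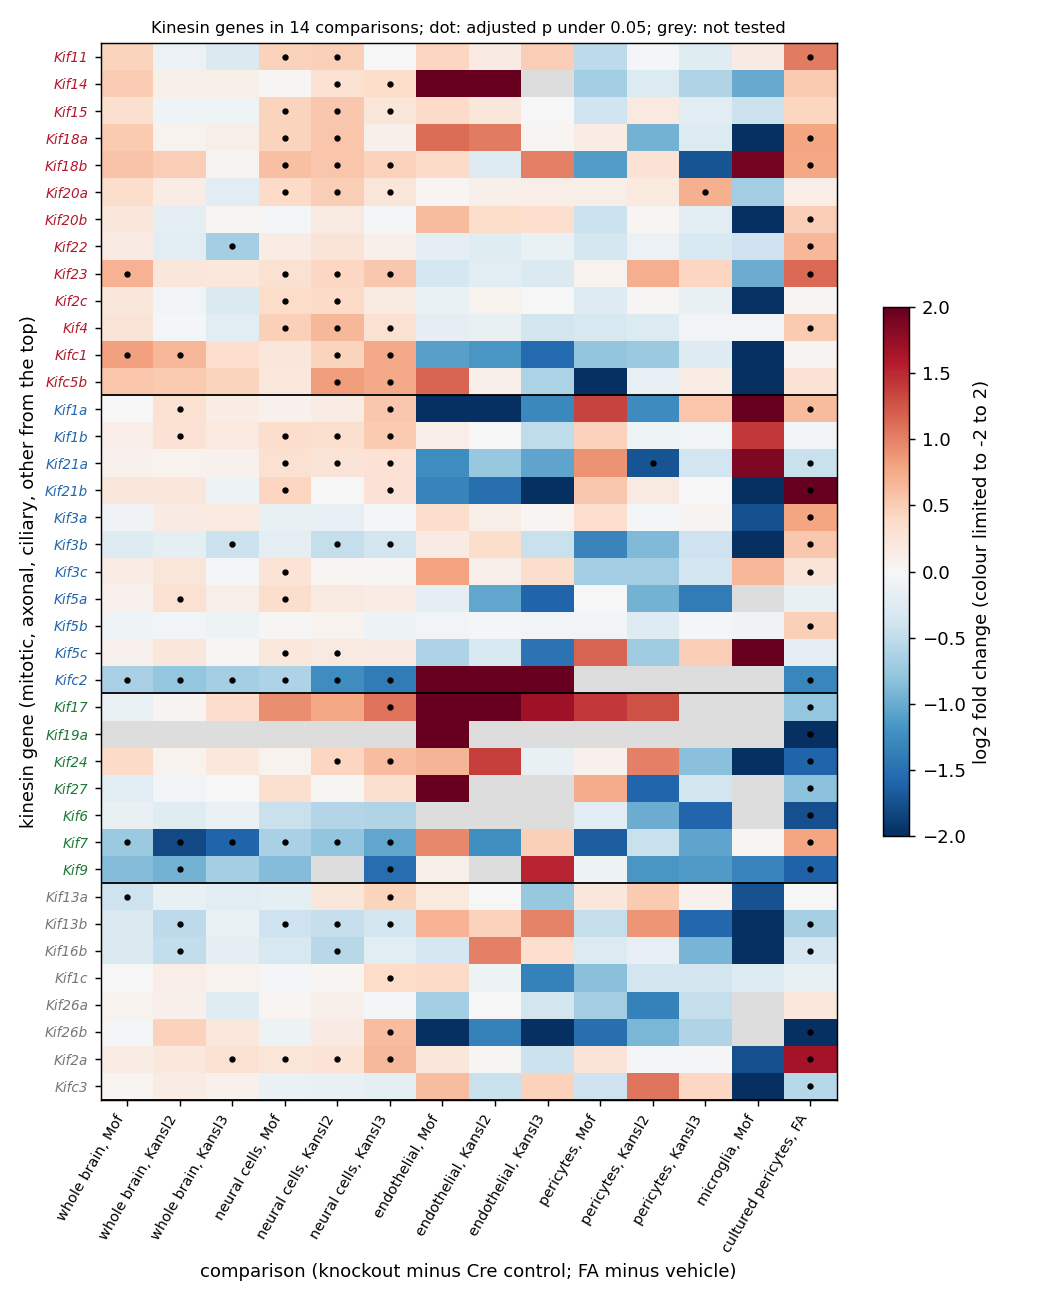
Log2 fold change of each kinesin (rows, grouped as mitotic, axonal, ciliary and other from the top) in the 14 comparisons (columns). Dots mark an adjusted p under 0.05 and grey marks genes not tested; Kif7 and Kifc2 are blue with a dot in all 6 whole-brain and neural columns.

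Among mitotic kinesins in neural cells, the median log2 fold change was 0.37 with Mof nKO, 0.47 with Kansl2 nKO and 0.24 with Kansl3 nKO, and that of all genes was within 0.01 of 0. Kif4 encodes a chromokinesin that sets the length of the central spindle. Its values were 867, 846 and 794 normalized counts in Mof nKO neural cells, against 633, 575 and 593 in Cre neural cells. With Kansl2 nKO Kif4 had 963, 1128 and 953 normalized counts in Kansl2 nKO neural cells, against 672, 611 and 630 in Cre neural cells, and with Kansl3 nKO 887, 975 and 1061 normalized counts in Kansl3 nKO neural cells, against 826, 754 and 779 in Cre neural cells. Every knockout library was above every Cre library, and Kif4 rose by 0.48 ± 0.07, 0.67 ± 0.08 and 0.31 ± 0.08 (limma adjusted p = 4.84e-05, 1.98e-05 and 0.00468). Kif18b, which trims astral microtubules, had 295.73, 359 and 301 normalized counts in Mof nKO neural cells, against 201, 211 and 217 in Cre neural cells, and rose by 0.60 ± 0.10. With the other two knockouts Kif18b had 318, 337 and 326 normalized counts in Kansl2 nKO neural cells, against 213, 224 and 231 in Cre neural cells, and 344, 381 and 413 normalized counts in Kansl3 nKO neural cells, against 262, 277 and 285 in Cre neural cells. The groups again did not overlap, and it rose by 0.55 ± 0.10 and 0.46 ± 0.10. Kif11, the motor that pushes the spindle poles apart, had 2301, 2494 and 1915 normalized counts in Mof nKO neural cells, against 1651, 1580 and 1606 in Cre neural cells. With Kansl2 nKO Kif11 had 2451, 2618 and 2098 normalized counts in Kansl2 nKO neural cells, against 1755, 1679 and 1706 in Cre neural cells, and with Kansl3 nKO 2023, 2148 and 2107 normalized counts in Kansl3 nKO neural cells, against 2155, 2071 and 2109 in Cre neural cells. The groups were apart with Mof and Kansl2 nKO, where Kif11 rose by 0.46 ± 0.08 and 0.47 ± 0.08, and they overlapped with Kansl3 nKO (-0.01 ± 0.06, limma adjusted p = 0.872).

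Kif15, the motor that backs up KIF11, rose in all 3 neural comparisons, and so did Kif20a and Kif23, whose proteins act at the central spindle. Kif15 rose by 0.44 ± 0.08, 0.54 ± 0.09 and 0.24 ± 0.08 with Mof, Kansl2 and Kansl3 nKO. Kif20a, which brings the chromosomal passenger complex to the midzone, rose by 0.39 ± 0.08, 0.49 ± 0.08 and 0.24 ± 0.08 in the same order. Kif23, a subunit of centralspindlin, rose by 0.31 ± 0.09, 0.42 ± 0.09 and 0.55 ± 0.08. Kif2c, a depolymerase that corrects kinetochore attachments, rose by 0.37 ± 0.08 and 0.38 ± 0.10 with Mof and Kansl2 nKO. Kif18a, which steadies chromosomes on the metaphase plate, rose by 0.45 ± 0.08 and 0.56 ± 0.10 in those 2 comparisons. Kif14, needed for cytokinesis, rose by 0.30 ± 0.11 with Kansl2 nKO and 0.36 ± 0.11 with Kansl3 nKO. The minus-end motor gene Kifc1, which gathers spindle poles, rose by 0.44 ± 0.14 and 0.75 ± 0.11, and its close copy Kifc5b by 0.84 ± 0.15 and 0.76 ± 0.14, in those last 2 comparisons; reads may be split between this pair in ways the counts do not show. Kif20b and Kif22 did not pass in neural cells. With Kansl2 nKO the call of Kif14 was lost without any of Cre183, Cre184 and Cre188 and K2_348 and K2_351 (limma adjusted p up to 0.121), with DESeq2 on recovered reads (0.0897), with no filter on low values (limma, 0.0541) and with TMM factors (0.0509), and that of Kifc1 without Cre184, Cre188 or K2_351 (up to 0.0939). With Kansl3 nKO Kif15 was lost without Cre184, Cre188, K3_349 or K3_356 (up to 0.13), Kif20a without Cre184, Cre188 or K3_366 (up to 0.102), and Kif14 without K3_356 (0.0599).

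In whole brain few mitotic kinesins passed. With Mof nKO all 13 tested were above 0 in log2 fold change, with a median of 0.45. Of these, 2 passed, where 1.93% of all genes were called higher and 4.04% lower. Kif23 had 45.3, 47.9 and 36.0 CPM in Mof nKO brains, against 31.4, 25.7 and 22.1 CPM in Cre brains, and rose by 0.70 ± 0.13 (edgeR adjusted p = 0.0121). Kifc1 had 23.6, 35.8 and 21.5 CPM in Mof nKO brains, against 18.8, 14.9 and 12.1 CPM in Cre brains, and rose by 0.82 ± 0.18. The authors' deposited table has 6 mitotic kinesins under an adjusted p of 0.05 in this comparison, all higher: these 2 and Kif11, Kif14, Kif18a and Kif18b, with log2 fold changes there of 0.46, 0.52, 0.53 and 0.58. For the other knockouts the authors' results have 2 higher with Kansl2 nKO and 1 lower with Kansl3 nKO. The shares of all genes under that limit in the authors' results are not given here. With Kansl2 nKO 7 of 13 were above 0, the median was 0.07, and Kifc1 rose by 0.67 ± 0.19, where 10.4% of all genes were called higher and 16.2% lower. With Kansl3 nKO 7 of 13 were above 0, the median was 0.04, and Kif22, a chromokinesin that pushes chromosome arms, fell (-0.68 ± 0.20), where 15.2% of all genes were called higher and 18.8% lower. Kif22 had 12.2, 12.3 and 12.3 CPM in Kansl3 nKO brains, against 24.2, 20.4 and 13.996 CPM in Cre brains, so the groups did not overlap. The median of all genes was within 0.04 of 0 in whole brain. In bulk tissue, fewer cells of a type and less RNA per cell cannot be told apart.

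Knockouts were also compared with each other in whole brain, in the same fit. Between Kansl3 nKO and Mof nKO brains, 4 of 13 mitotic kinesins were lower with Kansl3 nKO. Of all genes 7.43% were called lower there, and 13.5% in either direction. The 4 kinesins were Kif22 (-0.84 ± 0.20), Kif11 (-0.73 ± 0.18), Kif20a (-0.56 ± 0.16) and Kif23 (-0.50 ± 0.13). Kif11 had 79.3, 79.4 and 53.8 CPM in Kansl3 nKO brains and 107, 142.22 and 105 CPM in Mof nKO brains, with no overlap. Between Kansl2 nKO and Mof nKO brains Kif23 was lower with Kansl2 nKO (-0.48 ± 0.13). Of all genes 4.65% were called lower there, and 8.65% in either direction. Between Kansl3 nKO and Kansl2 nKO brains no kinesin passed in edgeR, 7 had an unadjusted p under 0.05, and 0.0368% of all genes were called. The share of all genes with an unadjusted p under 0.05 is not given here. Kif20a overlaps Cdc23 by 4930 bases and Brd8 by 240 bases in RefSeq, and no source states whether reads were counted by strand. Of the calls named here, that of Kif22 with Kansl3 nKO was lost without any of Cre_16 and K3_117, K3_119 and K3_149 (edgeR adjusted p up to 0.107), that of Kifc1 with Kansl2 nKO without Cre_18, Cre_19 or K2_70 (up to 0.0711), and those of Kif23 and Kifc1 with Mof nKO without any of Cre_18 and Cre_19 and Mof_193 and Mof_197 (up to 0.0608 and 0.103). Between Kansl3 and Mof nKO, Kif20a did not pass without any 1 of the 6 libraries (up to 0.103). Single libraries decided many of these calls: the Mof count over all kinesins against Cre, 5, became 3 without Cre_16, 1 without Cre_18, 0 without Cre_19, 0 without Mof_193 and 1 without Mof_197. The Kansl2 count, 9, became 4 without Cre_18, 4 without Cre_19 and 5 without K2_70, and the Kansl3 count, 5, became 2 without Cre_16, 3 without Cre_18, 2 without K3_119 and 3 without K3_149. The count between Kansl3 and Mof nKO, 5, became 0 without K3_149 or Mof_197 and 3 without K3_117, and that between Kansl2 and Mof nKO, 2, became 1 without any of K2_63, K2_68 and K2_70 and Mof_193 and Mof_197, and 4 without Mof_200.

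**Figure D3:**
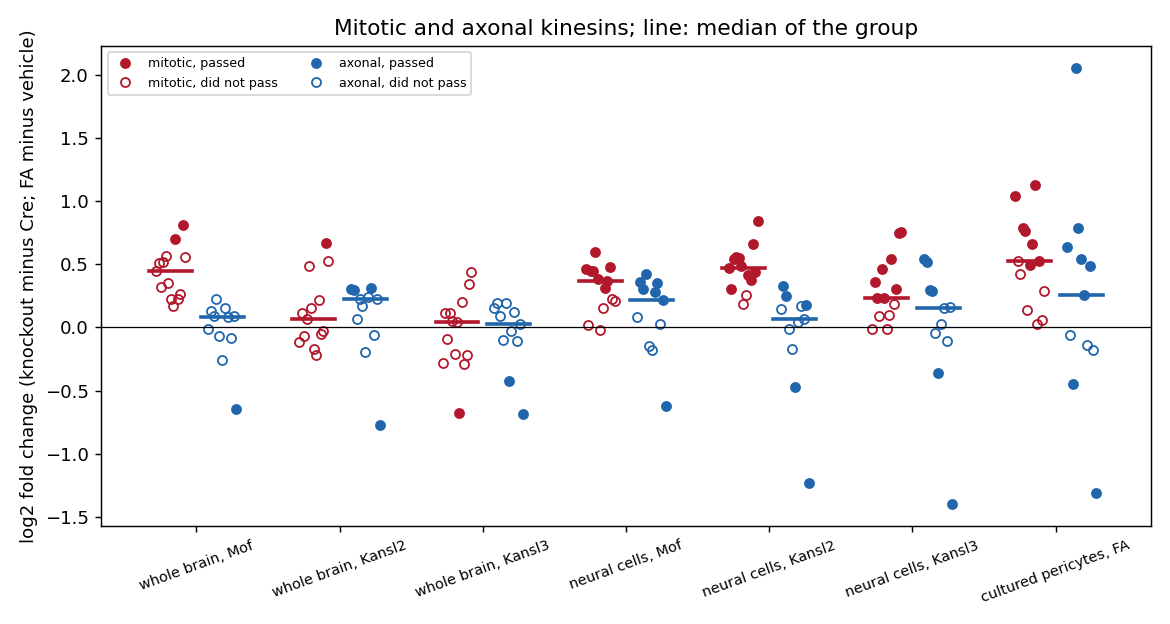
Log2 fold change (y axis) of each mitotic (red) and axonal (blue) kinesin in the whole-brain, neural and culture comparisons (x axis); filled points passed at an adjusted p under 0.05 and lines are group medians. In neural cells no mitotic point that passed lies below 0, whereas Kifc2 is the lowest axonal point in each brain comparison.

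Axonal kinesins split by gene. Kifc2, a C-terminal motor found mainly in neurons, fell in every whole-brain and neural comparison. It had 26.8, 23.6 and 28.6 CPM in Mof nKO brains, against 38.4, 36.1 and 49.9 CPM in Cre brains. Kansl2 nKO brains had 22.7, 26.6 and 23.7 CPM and Kansl3 nKO brains 28.0, 26.2 and 23.0 CPM of Kifc2, and each knockout library was below each Cre library. The log2 fold changes of Kifc2 were -0.65 ± 0.13, -0.77 ± 0.13 and -0.69 ± 0.13 (edgeR adjusted p = 0.0159, 0.000804 and 0.00162). In neural cells Kifc2 had 90.994, 84.6 and 75.8 normalized counts in Mof nKO neural cells, against 142.03, 131 and 116.56 in Cre neural cells. With Kansl2 nKO Kifc2 had 69.5, 51.9 and 53.4 normalized counts in Kansl2 nKO neural cells, against 151, 139.01 and 124 in Cre neural cells, and with Kansl3 nKO 64.4, 59.1 and 67.6 normalized counts in Kansl3 nKO neural cells, against 185, 171.51 and 153 in Cre neural cells. It fell further with Kansl2 and Kansl3 nKO (-1.24 ± 0.16 and -1.40 ± 0.14) than with Mof nKO (-0.62 ± 0.14); that difference was not tested. Kifc2 overlaps Cyhr1 by 425 bases and Foxh1 by 368 bases in RefSeq. With Mof nKO in whole brain its call was lost without Cre_19, Mof_193 or Mof_197 (edgeR adjusted p up to 0.0729).

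**Figure D4:**
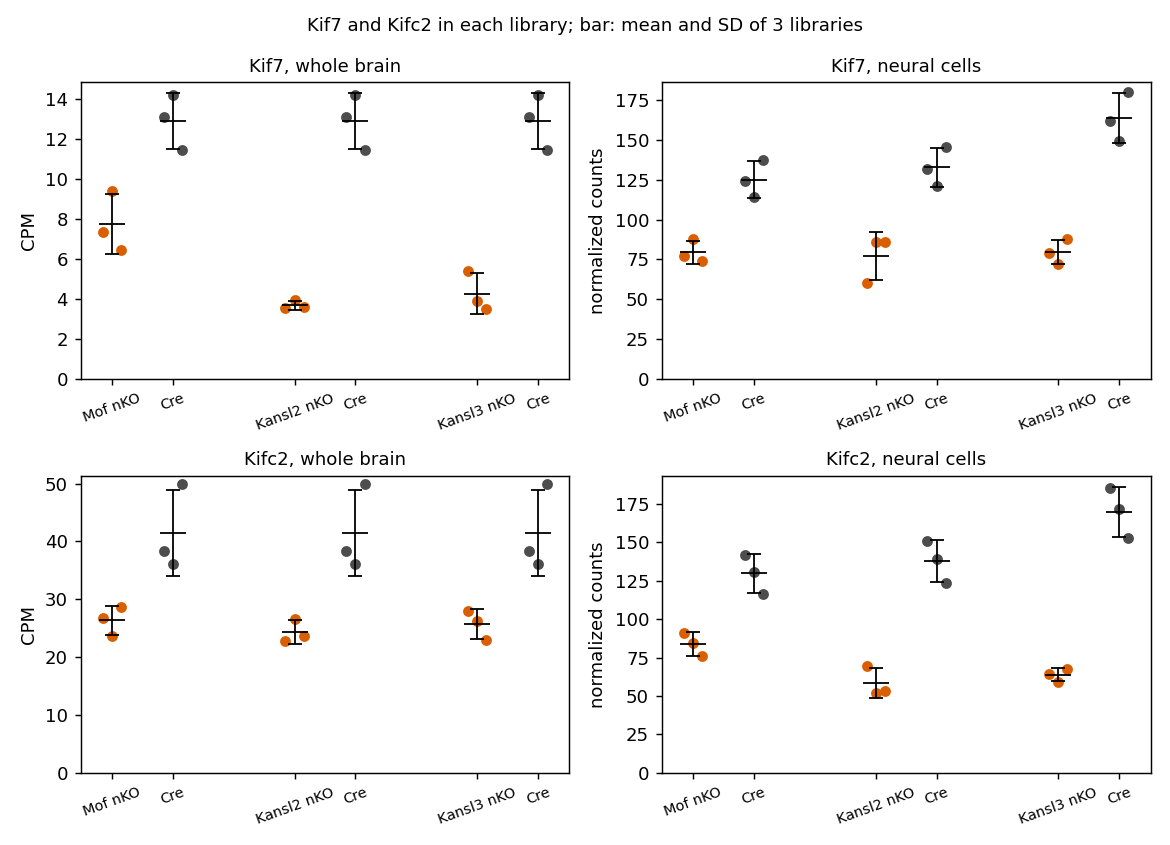
Kif7 (top) and Kifc2 (bottom) in each whole-brain library (left, CPM) and neural library (right, normalized counts), with knockouts left of their Cre controls. Bars are the mean and SD of 3 libraries, and in no panel does a knockout library reach its Cre libraries.

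Kif1b and Kif1a, whose proteins carry synaptic vesicle precursors (and, for KIF1B, mitochondria), went the other way. Kif1b had 5648, 5632 and 5880 normalized counts in Mof nKO neural cells, against 4254, 4481 and 4669 in Cre neural cells. With Kansl2 nKO Kif1b had 6155, 5831 and 5860 normalized counts in Kansl2 nKO neural cells, against 4520, 4761 and 4960 in Cre neural cells, and with Kansl3 nKO 9034, 8772 and 7474 normalized counts in Kansl3 nKO neural cells, against 5551, 5874 and 6132 in Cre neural cells. All knockout libraries lay above the Cre libraries, and Kif1b rose by 0.36 ± 0.06, 0.33 ± 0.07 and 0.52 ± 0.08. Kif1a had 5575, 5266 and 5047 normalized counts in Kansl3 nKO neural cells, against 3451, 3655 and 3816 in Cre neural cells, with no overlap, and rose by 0.54 ± 0.07 (limma adjusted p = 1.52e-05). With Mof and Kansl2 nKO Kif1a overlapped its controls in neural cells (0.08 ± 0.06 and 0.15 ± 0.07, neither passing). Kif21a, a motor that halts microtubule growth near the cortex, rose in all 3 neural comparisons, by 0.31 ± 0.06, 0.25 ± 0.07 and 0.29 ± 0.07. Its relative Kif21b rose by 0.42 ± 0.07 with Mof nKO and 0.29 ± 0.09 with Kansl3 nKO, and was at -0.01 ± 0.11 with Kansl2 nKO. Kif3b, a subunit of heterotrimeric kinesin-2, fell with Kansl2 and Kansl3 nKO in neural cells (-0.47 ± 0.09 and -0.36 ± 0.08) and with Kansl3 nKO in whole brain (-0.43 ± 0.15). Its partners differed: Kif3c rose by 0.28 ± 0.06 with Mof nKO in neural cells, and Kif3a passed nowhere in brain or neural cells.

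Of the conventional kinesin heavy chains, Kif5a rose by 0.35 ± 0.06 in Mof nKO neural cells and 0.31 ± 0.11 in Kansl2 nKO brains. Kif5c rose by 0.22 ± 0.06 and 0.18 ± 0.07 with Mof and Kansl2 nKO in neural cells. Kif5b, the chain used in most cell types, passed in none of the 6. In Kansl2 nKO brains Kif1a and Kif1b also rose, by 0.31 ± 0.10 and 0.29 ± 0.10. Those rises of Kif1a, Kif1b and Kif5a in whole brain did not pass with no filter on low counts (edgeR adjusted p = 0.0589, 0.0756 and 0.057) or with only the 6 libraries (0.0869, 0.126 and 0.0942). Kif5c with Kansl2 nKO did not pass with no filter on low values (limma adjusted p = 0.101), with TMM factors (0.0625) or with edgeR on recovered reads (0.0695). Leaving out 1 library ended the call of Kif5c with Kansl2 nKO in 5 of 6 cases (Cre183, Cre184 and Cre188, K2_345 and K2_348; adjusted p up to 0.194), of Kif21b with Kansl3 nKO without Cre183 or K3_356 (up to 0.0675), and of Kif3b in whole brain without Cre_16, Cre_18, K3_119 or K3_149 (up to 0.141). In whole brain with Kansl2 nKO the calls ended without Cre_16, Cre_18, K2_63 or K2_70 for Kif1a (up to 0.0926), Cre_16, Cre_18 or Cre_19 or K2_63 for Kif1b (up to 0.139), and Cre_16, Cre_19 or K2_63 for Kif5a (up to 0.198). The median log2 fold change of the 11 axonal kinesins was 0.08, 0.23 and 0.02 in whole brain and 0.22, 0.07 and 0.15 in neural cells with Mof, Kansl2 and Kansl3 nKO.

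Kif7 stood out among the ciliary kinesins. It lies at chr7:79698098-79715772 (GRCm38) and overlaps the end of Ticrr by 51 bases. Kif7 had 7.32, 9.38 and 6.46 CPM in Mof nKO brains, against 13.1, 14.2 and 11.4 CPM in Cre brains. It had 3.53, 3.94 and 3.58 CPM in Kansl2 nKO brains and 5.41, 3.89 and 3.50 CPM in Kansl3 nKO brains, under every Cre brain. Its log2 fold changes were -0.75 ± 0.18 with Mof nKO, -1.81 ± 0.20 with Kansl2 nKO and -1.59 ± 0.20 with Kansl3 nKO (edgeR adjusted p = 0.0317, 2.72e-05 and 6.28e-05). The whole-brain fall was larger with Kansl2 nKO and with Kansl3 nKO than with Mof nKO, by direct contrasts of -1.07 ± 0.21 and -0.85 ± 0.20 (edgeR adjusted p = 0.00803 and 0.0161). In neural cells Kif7 had 77.3, 87.5 and 73.7 normalized counts in Mof nKO neural cells, against 124, 114 and 137 in Cre neural cells. With Kansl2 nKO Kif7 had 59.9, 85.9 and 85.8 normalized counts in Kansl2 nKO neural cells, against 132, 121 and 146 in Cre neural cells, and with Kansl3 nKO 78.7, 72.3 and 87.7 normalized counts in Kansl3 nKO neural cells, against 162, 149.42 and 180 in Cre neural cells. The groups did not overlap, and the log2 fold changes were -0.65 ± 0.14, -0.79 ± 0.17 and -1.03 ± 0.14 (limma adjusted p = 0.00149, 0.0013 and 2.09e-05). With Mof nKO in whole brain the call was lost without any of Cre_16, Cre_18 and Cre_19 and Mof_193 and Mof_200 (edgeR adjusted p up to 0.112), and the contrast of Kansl3 with Mof nKO without K3_149 or Mof_197 (up to 0.0789). The authors' deposited table gave Kif7 a log2 fold change of -1.81 in Kansl2 nKO brains and -1.05 in Kansl3 nKO neural cells.

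Other ciliary kinesins moved less evenly. Kif24, a depolymerase at the mother centriole that restrains cilium growth, had 175, 152 and 139.18 normalized counts in Kansl3 nKO neural cells, against 105, 88.4 and 108 in Cre neural cells, and rose by 0.62 ± 0.14. With Kansl2 nKO it had 92.3, 129.79 and 111 normalized counts in Kansl2 nKO neural cells, against 85.7, 71.6 and 87.6 in Cre neural cells, and rose by 0.43 ± 0.16 with an adjusted p of 0.0434 in limma, a call that was lost with DESeq2 (adjusted p = 0.111) and edgeR (0.0516) on recovered reads, with no filter on low values (limma, 0.0553), with TMM factors (0.0521) and without any of Cre183, Cre184 and Cre188 and K2_348 and K2_351 (up to 0.175). Kif17, a motor of dendrites and cilia, had 22.4, 17.6 and 20.2 normalized counts in Kansl3 nKO neural cells, against 6.30, 10.4 and 10.4 in Cre neural cells, and rose by 1.09 ± 0.34; DESeq2 on recovered reads gave an adjusted p of 0.0593, and limma 0.0523 without K3_349. With Mof nKO Kif17 had 11.4, 11.7 and 19.2 normalized counts in Mof nKO neural cells, against 4.83, 7.93 and 7.93 in Cre neural cells, and with Kansl2 nKO 11.987, 9.98 and 18.023 normalized counts in Kansl2 nKO neural cells, against 5.13, 8.43 and 8.42 in Cre neural cells. Both pairs of groups were apart but neither passed. In each neural comparison the Cre mean of Kif17 was under 10. It reached that limit only through the knockout libraries, where it was higher, so little is read from its rise. Kif9, a motor of motile cilia, was low in brain and neural cells. It fell in Kansl2 nKO brains (1.62, 1.11 and 0.809 CPM, against 1.71, 2.99 and 2.38 CPM in Cre brains, -0.94 ± 0.32) and in Kansl3 nKO neural cells (-1.53 ± 0.49). The first call of Kif9 was lost with DESeq2 (adjusted p = 0.102), with only the 6 libraries (edgeR, 0.0872), with no filter on low counts (0.0586) and without Cre_18, Cre_19, K2_68 or K2_70 (edgeR, up to 0.164), the second without K3_349 (limma, 0.0696). Kif6 and Kif27 passed in none of the 6 comparisons.

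Kif2a, a depolymerase that prunes axon branches in neurons, rose in 4 of the 6. It had 1243, 1035 and 799 normalized counts in Kansl3 nKO neural cells, against 596, 655 and 694 in Cre neural cells, and rose by 0.64 ± 0.12. With Mof nKO Kif2a had 565, 559 and 639 normalized counts in Mof nKO neural cells, against 456, 500 and 528 in Cre neural cells, and with Kansl2 nKO 616, 673 and 615 normalized counts in Kansl2 nKO neural cells, against 485, 531 and 561 in Cre neural cells; these rises of 0.25 ± 0.08 and 0.27 ± 0.08 were smaller, and the groups did not overlap. In Kansl3 nKO brains it rose by 0.31 ± 0.09. Its calls were lost without Cre183, Cre184 or M689 with Mof nKO (limma adjusted p up to 0.0901), without Cre183 or K2_348 with Kansl2 nKO (up to 0.0859), and in whole brain without Cre_16, Cre_18 or K3_119 (edgeR, up to 0.114) or with no filter on low counts (0.0596). Kif2a overlaps Dimt1 by 2330 bases. Kif26b, which has lost motor activity and acts in cell adhesion, had 794, 741 and 638 normalized counts in Kansl3 nKO neural cells, against 453, 498 and 466 in Cre neural cells, and rose by 0.61 ± 0.09. Kif13a, which recycles endosomes, had 631, 566 and 568 normalized counts in Kansl3 nKO neural cells, against 445, 426 and 426 in Cre neural cells, and rose by 0.44 ± 0.08. The same gene fell in Mof nKO brains, with 35.6, 34.3 and 34.1 CPM against 44.6, 47.5 and 45.9 CPM in Cre brains (-0.41 ± 0.10), a call lost without Cre_16, Cre_18 or Cre_19 or Mof_193 or Mof_197 (edgeR adjusted p up to 0.124). Kif13b, its paralog and also a vesicle motor, fell with all 3 knockouts in neural cells (-0.41 ± 0.09, -0.47 ± 0.09 and -0.37 ± 0.09) and in Kansl2 nKO brains (-0.52 ± 0.11). Kif16b, another endosome motor, fell in Kansl2 nKO neural cells (-0.55 ± 0.15) and in Kansl2 nKO brains (-0.49 ± 0.15), the second not with only the 6 libraries (edgeR adjusted p = 0.0694) nor without Cre_18, Cre_19 or K2_70 (up to 0.126). Kif1c, a transporter of integrins, rose by 0.37 ± 0.13 in Kansl3 nKO neural cells; that call was lost with DESeq2 on recovered reads (adjusted p = 0.0562) and without Cre188 or K3_349 (limma, up to 0.152).

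Genes that work with the motors were read from lists. Of 22 spindle and cytokinesis partners, 16, 20 and 11 rose in neural cells with Mof, Kansl2 and Kansl3 nKO and 0 fell. Of all genes there, 19.4%, 20.1% and 26.4% were called higher and 17.1%, 22.1% and 28.8% lower. Tpx2, which activates Aurora A on spindle microtubules, rose by 0.51 ± 0.07 with Mof nKO, Prc1, the bundler that recruits KIF4, by 0.50 ± 0.07 with Kansl2 nKO, and Plk1, a mitotic kinase, by 0.82 ± 0.11 with Kansl3 nKO. Of 10 replication genes 8, 9 and 5 rose, and 1 fell with Kansl3 nKO; Mcm6, of the replicative helicase, rose by 0.54 ± 0.06 with Mof nKO. In whole brain 2 spindle partners rose with Mof nKO (Aurka 0.75 ± 0.17 and Ccnb1 0.62 ± 0.17) and all 22 were above 0, whereas 2 fell with Kansl3 nKO (Nusap1 -0.63 ± 0.18 and Racgap1 -0.38 ± 0.14) and 3 of 22 were above 0. Of all genes in whole brain, 1.93% were called higher with Mof nKO and 18.8% lower with Kansl3 nKO. Nothing particular to the list is read from the 2 that fell. Between Kansl3 and Mof nKO brains 10 of the 22 were lower with Kansl3 nKO, where 7.43% of all genes were called lower.

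On the transport side, Klc4, a kinesin light chain that links KIF5 to cargo, fell in all 6. Its log2 fold changes were -0.58 ± 0.11, -1.02 ± 0.11 and -1.30 ± 0.12 in whole brain and -0.54 ± 0.09, -0.85 ± 0.09 and -1.27 ± 0.09 in neural cells. Kif1bp, which binds kinesin motor domains and holds them off microtubules, also fell in all 6, with -0.55 ± 0.13, -0.75 ± 0.13 and -0.97 ± 0.13 in whole brain with Mof, Kansl2 and Kansl3 nKO. Of 14 light chains and adaptors tested, 3, 3 and 4 fell in whole brain, where 4.04%, 16.2% and 18.8% of all genes were called lower. In the same comparisons 0 rose, where 1.93%, 10.4% and 15.2% of all genes were called higher. Nothing particular to the list is read from the whole-brain counts with Kansl2 and Kansl3 nKO. In neural cells 2, 2 and 1 of the 14 rose and 2, 2 and 6 fell, where 19.4%, 20.1% and 26.4% of all genes were called higher and 17.1%, 22.1% and 28.8% lower, and nothing particular to the list is read from these counts. Of 20 dynein and dynactin genes, which move cargo toward minus ends, 6, 6 and 6 rose and 4, 3 and 7 fell in neural cells, and nothing particular to this list is read from these counts either. Dctn5, a dynactin subunit, fell with Kansl2 and Kansl3 nKO (-0.57 ± 0.11 and -1.02 ± 0.09), and Nde1, a dynein regulator needed in dividing progenitors, rose by 0.41 ± 0.10, 0.68 ± 0.14 and 0.81 ± 0.09 with Mof, Kansl2 and Kansl3 nKO.

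Cell markers moved beside some of these groups. With Kansl3 nKO in neural cells the 10 progenitor markers took 0.212 to 0.243% of reads in knockouts, against 0.139 to 0.169% in Cre, and the 12 neuron markers 0.473 to 0.500%, against 0.401 to 0.452%, with no overlap in either. Endothelial, pericyte, microglial and erythroid markers also took larger shares there without overlap. Pericyte markers took 0.00927 to 0.0101%, against 0.00475 to 0.00722%, and erythroid markers 0.108 to 0.210%, against 0.0466 to 0.0670%. Fibroblast markers overlapped. With Mof nKO in neural cells the progenitor and neuron shares overlapped (progenitor markers 0.144 to 0.166% in knockouts, against 0.139 to 0.169% in Cre), and with Kansl2 nKO progenitor markers took 0.156 to 0.247%, also overlapping. Gene by gene, however, 6 of the 10 progenitor markers rose with Mof nKO, 6 with Kansl2 nKO and 7 with Kansl3 nKO, and 0, 0 and 2 fell. Their median log2 fold changes were 0.48, 0.33 and 0.33, beside 0.37, 0.47 and 0.24 for the mitotic kinesins in the same comparisons. Of the 12 neuron markers 8, 5 and 7 rose and 1, 0 and 2 fell, with medians of 0.31, 0.21 and 0.25. Of the 7 erythroid markers 6, 5 and 7 rose. Of all genes in these neural comparisons, 19.4%, 20.1% and 26.4% were called higher and 17.1%, 22.1% and 28.8% lower. In whole brain progenitor markers were lower with Kansl3 nKO (0.106 to 0.125%, against 0.136 to 0.169% in Cre), and overlapped with Mof nKO (0.121 to 0.144%). The 8 microglial markers took more of the reads in all knockout brains, at 0.00829 to 0.0139% with Kansl2 nKO against 0.00237 to 0.00266% in Cre, and erythroid markers 0.0594 to 0.161% against 0.0371 to 0.0424%. The part of these shares in the kinesin values was not tested.

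In sorted endothelial cells, pericytes and microglia few kinesins passed. No kinesin passed in endothelial cells, where 0% of genes were called with Mof, Kansl2 or Kansl3 nKO by limma. The members with an unadjusted p under 0.05 numbered 6 of 38, 2 of 35 and 2 of 35 in these 3, and DESeq2 on recovered reads called 2, 1 and 0. The shares of all genes by these measures are not given here, so nothing particular to kinesins is read from these counts. Kif1a had 27.1, 3.0010, 60.008 and 82.2 normalized counts in Mof nKO endothelial cells, against 127, 214, 203.77 and 205 in Cre endothelial cells. All knockout values were lower, but the difference of -2.75 ± 0.95 had a limma adjusted p of 0.514. It was -2.77 ± 0.95 with Kansl2 nKO, at 34.5, 83.2 and 4.87 normalized counts, with an adjusted p of 0.827. Kif21b, the axonal kinesin with the smallest p with Kansl3 nKO, had 157, 34.6 and 0.879 normalized counts in Kansl3 nKO endothelial cells, against 167, 280, 278 and 237 in Cre endothelial cells (-3.43 ± 1.27, limma adjusted p = 0.736). The 12 neuron markers were also lower in the knockout endothelial libraries, at 0.0110 to 0.0197% of reads with Mof nKO, 0.00966 to 0.0142% with Kansl2 nKO and 0.00960 to 0.0167% with Kansl3 nKO, against 0.0240 to 0.0413% in Cre; none was at 0 and their part in the result was not tested.

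Among the other smallest p-values in endothelial cells, Kif27, a ciliary paralog of Kif7, had 49.7, 18.006, 25.3 and 14.9 normalized counts in Mof nKO endothelial cells, against 0, 0, 0 and 0 in Cre endothelial cells. It did not pass (limma adjusted p = 0.379). Kif27 reached the mean limit only through the Mof nKO libraries, so only a rise could have been seen. With Kansl2 and Kansl3 nKO it was under the limit and not tested. Mitotic kinesins showed no common direction: Kif20b had a difference of 0.63 ± 0.35 with Mof nKO, Kif14 of 2.86 ± 1.49 with Kansl2 nKO and Kifc1 of -1.55 ± 0.89 with Kansl3 nKO, none passing. Kif26b was at -2.82 ± 1.57 with Mof nKO and Kif16b at 1.01 ± 0.79 with Kansl2 nKO. Kif17 was at 2.72, 93.0 and 27.3 normalized counts with Kansl2 nKO and 0, 0, 0 and 72.4 in Cre. With Kansl3 nKO the differences were -1.35 ± 0.67 for Kif1c and 1.53 ± 1.59 for Kif9. Values of such low members were spread widely between libraries of a group.

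In sorted pericytes Kif21a had 127, 96.2 and 208 normalized counts in Kansl2 nKO pericytes, against 356.05, 365, 591 and 564 in Cre pericytes. The groups did not overlap and it fell (-1.73 ± 0.27, limma adjusted p = 0.00356); 1.26% of genes were called lower and 0.951% higher. Of the 10 axonal kinesins tested 9 were below 0, with a median of -0.71. The authors' deposited table also has 1 mitotic kinesin higher with Kansl2 nKO, and the share of all genes called there is not given here. In the same libraries neuron markers took 0.0192 to 0.0275% of reads, against 0.0304 to 0.0474% in Cre, and the progenitor list 0.210 to 0.258%, against 0.358 to 0.459%. That list took less in Cre neural cells, 0.139 to 0.169%. It also took 0.236 to 0.272% in vehicle cultures, where Hes5 and Sox2 were at 0. Its share in pericytes is therefore not a measure of progenitors. Read totals ran from 2357456 to 3605002 with Kansl2 nKO, against 3879869 to 5705548 in Cre. Their part in the result was not tested. Kif20a had 686, 594, 625 and 734 normalized counts in Kansl3 nKO pericytes, against 382, 444, 421 and 358 in Cre pericytes, and rose by 0.72 ± 0.15 (limma adjusted p = 0.0216), where 1.88% of genes were called higher and 1.24% lower. This call was lost without Cre_134, Cre_139 or Cre_142 or K3_327 or K3_339, with adjusted p up to 0.0755. The progenitor list, which is not a measure of progenitors here, took 0.459 to 0.651% of reads in those Kansl3 nKO libraries, against 0.358 to 0.459% in Cre.

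With Mof nKO no kinesin passed in pericytes and 0% of genes were called by limma. There 6 of 37 kinesins had an unadjusted p under 0.05, and DESeq2 on recovered reads called 2. The matching shares of all genes are not given here, so nothing particular to kinesins is read from these counts. Kif1a had 370, 305 and 243 normalized counts in Mof nKO pericytes, against 102, 98.6, 113 and 166 in Cre pericytes, so all knockouts were higher (1.36 ± 0.27, limma adjusted p = 0.117). Kif7 was at 16.6, 4.92 and 30.8 normalized counts with Mof nKO, against 59.2, 32.3, 58.1 and 39.4 in Cre (-1.65 ± 0.62, not passing). Kif26b and Kifc5b were at -1.51 ± 0.49 and -2.04 ± 0.97. The 8 pericyte markers took 0.559 to 0.783% of reads in these knockouts, against 1.03 to 1.33% in Cre, and read totals ran from 1572515 to 3378677, against 3879869 to 5705548 in Cre; the part of either was not tested. Without M_586 limma called 2 kinesins, and the share of all genes called then is not given here.

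In microglia with Mof nKO no kinesin passed and 0% of genes were called by limma. There 6 of 31 had an unadjusted p under 0.05 and DESeq2 on recovered reads called 3. The authors' deposited table has 2 mitotic kinesins lower at an adjusted p under 0.05. The shares of all genes by these measures are not given here, so nothing particular to kinesins is read from these counts. The median over all genes was itself at -0.50, and that of the mitotic kinesins at -0.99 by limma. The mitotic median depended strongly on the method, as given at the end. Kif18a had 4.11, 0 and 0 normalized counts in Mof nKO microglia, against 103, 123 and 35.3 in Cre microglia, and Kifc3, a minus-end motor at cell junctions, had 1.65, 0 and 0 normalized counts in Mof nKO microglia, against 65.5, 86.2 and 57.7 in Cre microglia. Kif1b had 979, 710 and 830 normalized counts in Mof nKO microglia, against 386, 332 and 233 in Cre microglia (1.42 ± 0.44, limma adjusted p = 0.281), and Kif24 4.11, 18.5 and 0 normalized counts in Mof nKO microglia, against 30.5, 27.8 and 50.2 in Cre microglia. The 8 microglial markers took 0.271 to 0.576% of reads with Mof nKO, against 0.942 to 1.20% in Cre, and their part in these values was not tested. Read totals ran from 2215701 to 7151026 in Mof nKO microglia and from 7893551 to 9817084 in Cre microglia, and their part was not tested either. The Mof nKO microglia carry the same numbers in the labels as the Mof nKO neural cells; whether they came from the same brains is not given in the sources used here. Without M643 limma called 5 kinesins, and the share of all genes called then is not given here.

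Fatty acids changed 27 of 39 tested kinesins in cultured pericytes, 15 up and 12 down, where 32.3% of all genes were called higher and 34.3% lower. In either direction 66.6% of all genes were called, and nothing particular to the family is read from these counts. Of 13 mitotic kinesins 7 rose and none fell, with a median of 0.52. Kif23 had 9.48, 8.41 and 10.3 CPM with fatty acids, against 5.02, 3.94 and 3.94 CPM with vehicle, and rose by 1.13 ± 0.15 (edgeR adjusted p = 0.000347). Kif11 had 13.1, 9.84 and 13.0 CPM with fatty acids, against 7.43, 4.44 and 5.61 CPM with vehicle, and rose by 1.04 ± 0.21. The groups were apart for both. Kif18a, Kif18b, Kif22, Kif4 and Kif20b also rose, by 0.79 ± 0.15, 0.77 ± 0.16, 0.66 ± 0.19, 0.52 ± 0.17 and 0.49 ± 0.19. Of spindle partners 12 of 22 rose, Tpx2 by 1.01 ± 0.13 and Prc1 by 1.05 ± 0.16. Of 10 replication genes 5 rose and 2 fell.

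Axonal kinesins split again with fatty acids, 6 up and 2 down of 11, where 32.3% of all genes were called higher and 34.3% lower. Kif21b had 9.75, 9.82 and 7.71 CPM with fatty acids, against 1.89, 2.58 and 2.05 CPM with vehicle, and rose by 2.06 ± 0.17. Kif3a and Kif3b, the motor pair of kinesin-2, rose by 0.79 ± 0.06 and 0.54 ± 0.09, whereas Kifap3, their cargo-binding partner, fell (-1.03 ± 0.06). Kif1a, Kif5b and Kif3c rose by 0.64 ± 0.08, 0.48 ± 0.11 and 0.26 ± 0.08. Kifc2 had 3.70, 4.74 and 4.59 CPM with fatty acids, against 11.1, 11.2 and 10.017 CPM with vehicle, and Kif21a was at -0.45 ± 0.10; both fell. Kifc2 changed by -1.31 ± 0.13. That sign was also seen in brain, but treatment and cells differed, and a link was not tested.

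Of the 7 kinesins listed as ciliary, 6 fell in culture, with a median of -1.60, where 34.3% of all genes were called lower. Kif3a and Kif3b, which rose, were listed as axonal and are not counted here. Kif9 had 2.59, 2.27 and 2.74 CPM with fatty acids, against 7.80, 7.48 and 8.03 CPM with vehicle (-1.62 ± 0.13), and Kif6, another motor of motile cilia, also fell (-1.75 ± 0.20). Kif24 had 0.878, 1.43 and 1.0038 CPM with fatty acids, against 3.2445, 3.43 and 3.39 CPM with vehicle, and fell (-1.60 ± 0.20). Kif19a, which shortens motile cilia, had 0.0462, 0.249 and 0.205 CPM with fatty acids, against 0.965, 0.776 and 1.12 CPM with vehicle, and fell (-2.49 ± 0.43). Kif17 and Kif27 fell (-0.78 ± 0.25 and -0.82 ± 0.24). Kif7 was the exception: it had 19.9, 22.1 and 25.004 CPM with fatty acids, against 12.1, 13.6 and 13.1 CPM with vehicle, and rose by 0.79 ± 0.11, opposite in sign to its fall in brain and neural cells. The other kinesins held the largest change of any member, that of Kif26b, which had 2.84, 2.70 and 2.53 CPM with fatty acids, against 59.2, 59.965 and 65.1 CPM with vehicle and fell (-4.51 ± 0.09, edgeR adjusted p = 1.68e-06). Kif2a had 111, 205 and 193.32 CPM with fatty acids, against 51.1, 52.2 and 57.7 CPM with vehicle, and rose by 1.66 ± 0.22. Kif13b, Kif16b and Kifc3 fell (-0.67 ± 0.12, -0.33 ± 0.09 and -0.56 ± 0.08).

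**Figure D5:**
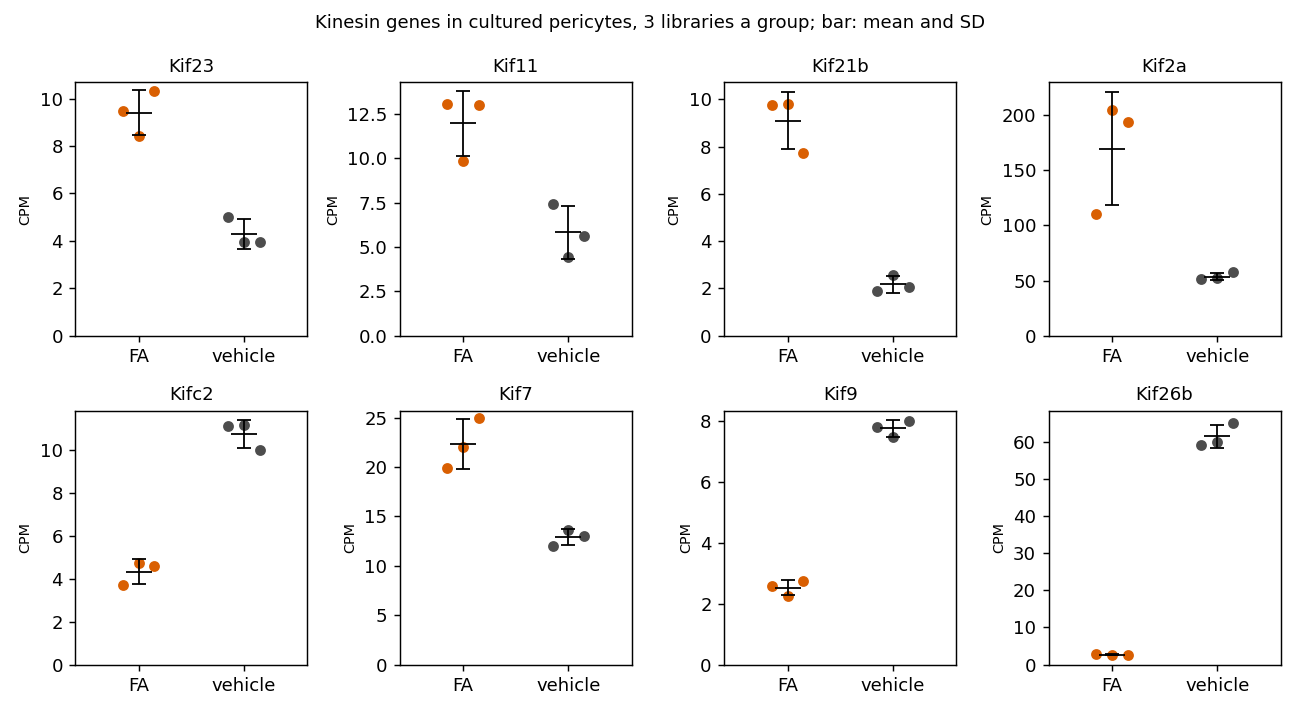
CPM (y axis) of 8 kinesins in each culture library, fatty acids (FA) left of vehicle; bars are the mean and SD of 3 libraries. Kif26b is at 2.53 to 2.84 CPM with fatty acids and at 59.2 to 65.1 CPM with vehicle, and no pair of groups overlaps.

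Some weaker culture calls rested on single libraries. Leaving out 1 library ended the call of Kif20b (FA 1, FA 3, vehicle 2 or vehicle 3; edgeR adjusted p up to 0.163), Kif17 (FA 2, FA 3, vehicle 1 or vehicle 3; up to 0.104), Kif27 (FA 3, vehicle 1 or vehicle 2; up to 0.0723), Kif4 (FA 3, vehicle 2 or vehicle 3; up to 0.105), and Kif3c and Kif22 (vehicle 2 or vehicle 3; up to 0.0961 and 0.0757). DESeq2 gave Kif17 and Kif27 adjusted p-values of 0.141 and 0.0971. Kif20b and Kif3c did not pass with no filter on low counts (edgeR adjusted p = 0.0561 and 0.073), nor Kif20b with a mean count of at least 10 (0.0504). The 8 pericyte markers took 0.00321 to 0.00374% of reads with fatty acids, against 0.0207 to 0.0220% with vehicle, far under the 1.03 to 1.33% of freshly sorted Cre pericytes; none was at 0 in all libraries. Fibroblast markers took 0.00907 to 0.0115% with fatty acids, against 0.0544 to 0.0553% with vehicle, and Lum was at 0. The part of these shares in the kinesin values was not tested.

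Control libraries show where each motor is expressed. Libraries were made with different kits (TruSeq for whole brain, neural cells and culture, SMART-Seq v4 for the sorted endothelial cells, pericytes and microglia), so the values describe each set and were not tested against each other. The 14 mitotic kinesins summed to 684 ± 94.7 CPM in Cre neural cells, 665 ± 130.03 CPM in endothelial cells, 750 ± 61.9 CPM in pericytes, 437 ± 36.2 CPM in microglia and 398 ± 89.9 CPM in whole brain, against 87.1 ± 11.7 CPM in vehicle-treated cultured pericytes (mean ± SD; n = 4 endothelial and pericyte libraries, otherwise 3). The 11 axonal kinesins summed to 3142 ± 205 CPM in neural cells and 3848 ± 396 CPM in whole brain. They summed to 1399 ± 69.5 CPM in pericytes and 1470 ± 15.7 CPM in vehicle cultures. In endothelial cells and microglia the sums were 734 ± 79.7 and 727 ± 45.3 CPM. Kif5c averaged 669 ± 41.6 CPM in neural cells and 5.80 ± 2.55 CPM in microglia, while Kif5b, the broadly used heavy chain, averaged 251 ± 14.496 and 504 ± 26.9 CPM in the same sets. Kif7 averaged 15.6 ± 2.27 CPM in neural cells, 14.3 ± 3.96 CPM in pericytes, 13.8 ± 0.823 CPM in vehicle cultures and 13.4 ± 2.12 CPM in whole brain, all within their spread of each other, and 3.49 ± 2.84 CPM in endothelial cells. Kifc2 averaged 42.8 ± 6.03 CPM in whole brain, 16.3 ± 2.74 CPM in neural cells and 11.5 ± 0.743 CPM in vehicle cultures. It averaged 3.45 ± 4.91 CPM in endothelial cells, 1.23 ± 1.78 CPM in pericytes and 0.917 ± 1.20 CPM in microglia.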

How the data were processed

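RNA-seq of 64 mouse libraries in 20 groups was used; 21 chromatin libraries were not analysed here. Whole-brain and culture files hold whole-number gene counts, deposited by the authors without normalization. The sorted-cell tables hold a signal per gene, counts that the authors had divided by size factors before they deposited them. Each comparison also came with the log2 fold changes and adjusted p-values of the authors' deposited table. STAR, featureCounts, DESeq2 and mm10 are named in the submitters' processing notes, with no role or order. One Mof nKO endothelial column carries a number that no label has, and was placed by its group.

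Counts were tested with edgeR's quasi-likelihood test (edgeR 4.0.16, R 4.3.3; TMM factors, filterByExpr), fitted jointly over the 12 whole-brain libraries. Sorted-cell values were tested as log2(value + 1) with limma 3.58.1 within each table, keeping genes whose mean was 10 or more. Adjusted p-values (Benjamini-Hochberg) run over all genes tested, and a gene was called under 0.05. Whole reads could be recovered for 100% of values in 68 library columns (tolerance 0.01), and edgeR and DESeq2 1.42.0 on those reads were alternatives. Other alternatives were another scaling, DESeq2 on counts, other filters and pseudocount, TMM factors in sorted-cell tables, the 6 libraries alone, the replicate block in culture and leaving out each library. Percent values of markers are shares of recovered or counted reads. Tests were checked on simulated data. Of 72 pairs of libraries within groups, none agreed within sampling noise (lowest chi-square per gene 4.96).

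The members and lists were chosen with earlier results of these data known. Values in every library are given for the 3 members of each role with the smallest p-values, and for members called in a comparison or, where none was, the smallest p of each role. Some further members were named after their values were seen. Promoter windows and gene positions are from RefSeq (GRCm38.p6); tables were made with pandas 2.3.3 and numpy 2.4.6 in Python 3.11.15.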

Additional observations from a re-analysis of the deposited data

Results flagged for a closer look

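In groups of 4 libraries, a single Cre endothelial library stood far from the other 3 for each of 3 kinesins, a different library each time; chance flags about 1 in 20 groups. Kif1a was at 127 normalized counts in 1 Cre library in the Mof table and at 122 in the same library in the Kansl2 table, under the other 3. Kif17 was at 72.4 in 1 Cre library of the Kansl2 table and listed at 0 in the other 3. Kif9 was at 53.9 in 1 Cre library of the Kansl3 table, above the other 3.

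For 5 pairs of comparisons the libraries of 1 cell type were all higher in knockouts and those of another all lower, and the difference between the cell types was not tested. Only members called in a comparison, or with the smallest p of their role where none was called, were searched. The share of such pairs over all genes was not counted. Kif21a alone passed on both sides. With Mof nKO, Kif18a had a log2 fold change of 0.45 in neural cells and -5.49 in microglia; the Mof nKO libraries of both carry the same 3 numbers in the labels and may share brains. Also with Mof nKO, Kif1a was at 1.36 in pericytes and -2.75 in endothelial cells. With Kansl2 nKO, Kif1a was at 0.31 in whole brain and -2.77 in endothelial cells, and Kif21a at 0.25 in neural cells and -1.73 in pericytes. With Kansl3 nKO, Kif21b was at 0.29 in neural cells and -3.43 in endothelial cells.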

How the results depend on the processing

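Of the called kinesin results, 77 kept their call under every alternative run; over 1322 recomputed values, 1159 kept the call, 163 did not, and no call changed direction. The number of kinesins called was 9 with no filter on low counts for Mof nKO in whole brain (5 otherwise) and 4 with only the 6 libraries for Kansl2 nKO (9 otherwise). DESeq2 on recovered reads called 2 and 1 in endothelial cells with Mof and Kansl2 nKO, 2 and 3 in pericytes with Mof and Kansl2 nKO, and 3 in microglia. The cause was not tested, and the shares of all genes that DESeq2 called there are not given here. In microglia the mitotic median was -0.10 with edgeR and 0.037 with DESeq2 on recovered reads, and the axonal median 1.34 with DESeq2. Leaving out 1 library at a time gave counts of 0 to 6, 4 to 10 and 2 to 7 in whole brain with Mof, Kansl2 and Kansl3 nKO, 0 to 2 and 0 to 1 in pericytes with Mof and Kansl3 nKO, 0 to 5 in microglia, 1 to 4 between Kansl2 and Mof nKO, and 0 to 6 between Kansl3 and Mof nKO. The same gave axonal medians of 0.11 to 0.29 (Kansl2 nKO brains), 0.10 to 0.20 (Kansl3 nKO neural cells), -0.37 to 0.23, -0.22 to -0.0059 and -1.01 to 0.017 (endothelial cells with Mof, Kansl2 and Kansl3 nKO), 0.12 to 0.69 (Mof nKO pericytes) and -0.081 to 1.53 (microglia). Mitotic medians ran from 0.45 to 0.55 and 0.20 to 0.31 in neural cells with Kansl2 and Kansl3 nKO, and from -0.19 to 0.35 in Mof nKO endothelial cells. In culture, same-numbered FA and vehicle libraries had correlations of 0.34, 0.21 and 0.06, and FA 2 correlated best with vehicle 3 (0.32), so the numbers were not taken to pair them. With the replicate block 27 kinesins were called, 16 higher and 11 lower, with a mitotic median of 0.51 and an axonal one of 0.26.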
